A study of Mus musculus with 6 samples.

Results

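The globin and haem synthesis genes examined here were Hba-x, Hbb-y, Hbb-bh1, Hba-a1, Alas2, Alad, Urod and Fech, read in the dissected E12.5 pancreas of wild type and Hox6 null mouse embryos. Every probe set that the platform annotation assigned to 1 of these genes alone was taken, which gave 17 of 45037 probe sets for 8 of 9 genes named, out of 18193 genes on the array. Ahsp, the chaperone of free alpha-globin, was not analysed here. A further 3 probe sets list Hba-a1 together with another gene and were left out of the comparison, although they read between 9.73 and 13.41 on the arrays. There were 3 control arrays (wild type, Bl6 strain) and 3 Hox6 null arrays (Hox6 null, Bl6 strain), each from its own sample of dissected, flash-frozen pancreas and labelled a biological replicate. The labels do not say how many embryos made up a sample, and they describe the null genotype no further. The Hox6 paralogue group consists of Hoxa6, Hoxb6 and Hoxc6, which encode homeodomain transcription factors. Values are deposited log2 levels per probe set, so that a difference of 1 is a doubling. They can be compared between arrays for the same probe set, but not between probe sets.

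At midgestation most red cells in the circulation are primitive erythroid cells, which arise in the yolk sac and mature in the bloodstream. They carry haemoglobins whose chains include zeta (Hba-x), epsilon-y (Hbb-y) and beta-h1 (Hbb-bh1). As these cells mature, beta-h1 gives way to epsilon-y. Definitive red cells, formed in the fetal liver, use adult chains such as that of Hba-a1, but adult alpha-globin is not taken here as particular to them. Haem is made in parallel: ALAS2, the erythroid form of the rate-limiting enzyme, starts the pathway in mitochondria, ALAD and UROD act in the cytosol, and FECH inserts iron in the mitochondria. A dissected embryonic pancreas contains blood in its vessels, and such a bulk sample cannot tell fewer red cells apart from less of a transcript per red cell.

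The start regions of 4 members are shown, chosen after the values were seen: Hba-x and Hbb-y, whose mean differences between the genotypes were near 0, and Alas2 and Urod, whose means were lower in the null arrays without passing the test. Those of Hba-a1 and Alad are not printed. Each sequence is the 250 bases before the start of transcription in RefSeq (GRCm38.p6), 5′ to 3′ on the strand of the gene. Capitals mark matches, on either strand, to GATAA (the core of sites for GATA factors), CACCC (the box bound by Krüppel-like factors such as KLF1), CCAAT or TATAAA.
Hba-x, chr11:32276350-32276599, plus strand: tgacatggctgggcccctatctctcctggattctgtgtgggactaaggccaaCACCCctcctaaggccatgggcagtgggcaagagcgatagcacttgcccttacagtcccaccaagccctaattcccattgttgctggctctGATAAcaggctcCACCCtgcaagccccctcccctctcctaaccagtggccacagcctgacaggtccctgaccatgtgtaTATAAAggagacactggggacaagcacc
Hbb-y, chr7:103853208-103853457, minus strand: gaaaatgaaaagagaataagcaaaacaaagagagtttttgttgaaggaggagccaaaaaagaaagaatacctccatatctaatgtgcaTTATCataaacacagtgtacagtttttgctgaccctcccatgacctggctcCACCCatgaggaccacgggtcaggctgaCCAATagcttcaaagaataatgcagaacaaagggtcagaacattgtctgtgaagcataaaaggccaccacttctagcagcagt
Alas2, chrX:150547167-150547416, plus strand: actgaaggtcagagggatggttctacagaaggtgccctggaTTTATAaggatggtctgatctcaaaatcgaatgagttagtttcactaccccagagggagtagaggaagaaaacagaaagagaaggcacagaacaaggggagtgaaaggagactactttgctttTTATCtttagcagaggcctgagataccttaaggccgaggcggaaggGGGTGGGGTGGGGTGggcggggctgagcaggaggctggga
Urod, chr4:116994414-116994663, minus strand: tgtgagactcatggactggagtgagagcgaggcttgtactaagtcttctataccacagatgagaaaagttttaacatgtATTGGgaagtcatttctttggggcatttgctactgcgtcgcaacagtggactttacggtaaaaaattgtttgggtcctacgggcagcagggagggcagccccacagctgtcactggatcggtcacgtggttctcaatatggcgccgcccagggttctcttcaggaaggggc
GATAA and CACCC both occurred before Hba-x, Hbb-y and Alas2, and neither occurred before Urod. Before Hba-x there were 1 GATAA and 2 CACCC, before Hbb-y 1 of each, and before Alas2 1 GATAA and 3 CACCC, which adjoin one another in the stretch of capitals. Of 32851 start regions of this length in the table, 22.6% held GATAA, 52.0% held CACCC and 10.1% held both. CCAAT was found in 33.8% of them and TATAAA in 12.4%. These are letter matches only.

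None of the members passed the test between genotypes, but they did not all read alike. Hbb-bh1, Alad and Urod lay below every control array on all 3 null arrays with each of their probe sets. Alas2 and 3 of 4 probe sets of Fech were lower on average, all but 1 of them with overlapping arrays. Hba-x and Hbb-y were at nearly the same level in both genotypes. Over all 17 probe sets the median difference, Hox6 null minus control, was -0.44, against 0.042 over all probe sets. It was -0.47 for the 9 enzyme probe sets and -0.020 for the 8 globin probe sets. The difference was negative for 13 of 17 member probe sets, against 42.7% of all probe sets.

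In counts, 0 of 17 member probe sets had an adjusted p under 0.05 (limma, two-sided, Benjamini-Hochberg over all probe sets), where 0.00222% of all probe sets did. With an unadjusted p under 0.05 (limma), 9 were lower and 1 was higher in the null arrays, against 6.79% and 8.17% of all probe sets. The arrays did not overlap for 8 lower and 1 higher member probe sets, against 9.89% and 12.1% of all probe sets. Probe sets of the same gene read the same transcripts, so these counts hold fewer than 17 independent readings. With each gene represented by its probe set of highest mean level, 0 of 8 genes passed, where 0.0715% of 18193 genes did, and 3 of 8 were lower without overlap, where 11.7% of genes were. The same 3, Hbb-bh1, Alad and Urod, were lower with an unadjusted p under 0.05 (limma), against 8.24% of genes, and 1, Hba-a1, was higher, against 8.73%.

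**Figure D1:**
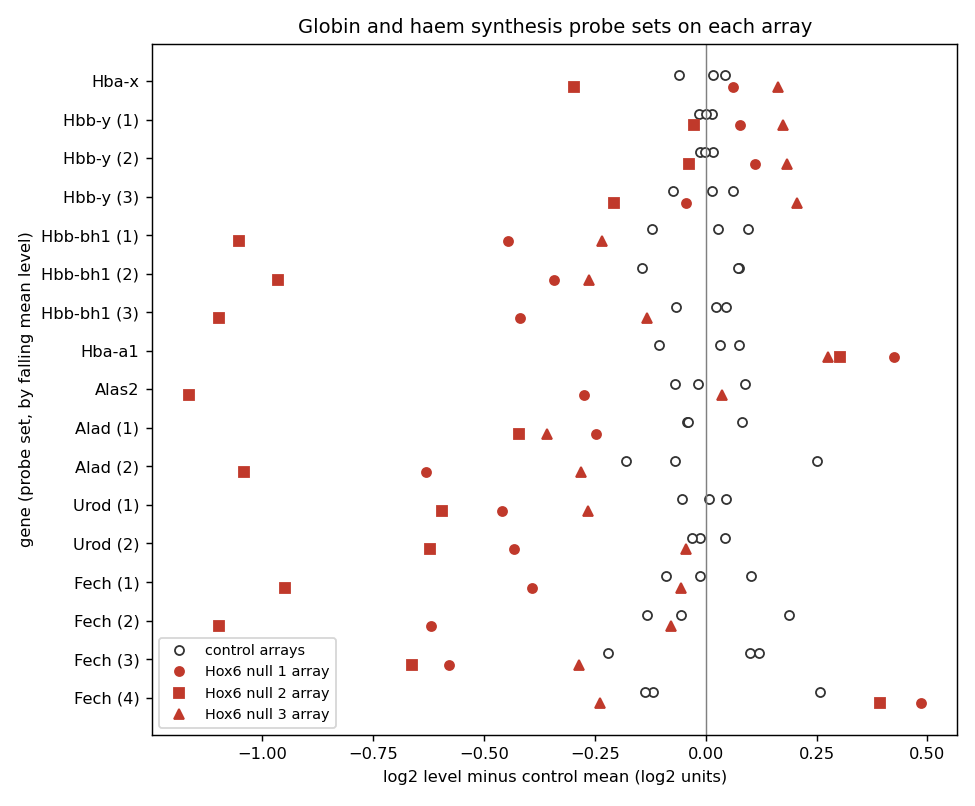
Each row is 1 probe set of a globin or haem synthesis gene, numbered within a gene by falling mean level; the horizontal axis is its log2 level minus the control mean. Open circles are the 3 control arrays and filled symbols the 3 Hox6 null arrays. Hox6 null array 2 (square) was the lowest of all 6 arrays in 15 of 17 rows, a share that was not counted over all probe sets.

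The embryonic alpha-type globin Hba-x read 13.06, 12.95 and 13.03 in the control arrays and 13.08, 12.72 and 13.18 in the null arrays. The null arrays lay on both sides of the controls, with null 2 the lowest and null 3 the highest of all arrays. The difference was -0.023 ± 0.14 (SE; 95% interval -0.35 to 0.31; limma, adjusted p = 0.948).

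Hbb-y, the embryonic beta-type chain of later primitive cells, has 3 probe sets that gave the same picture. The brightest (1436717_x_at) read 12.65, 12.62 and 12.64 in controls and 12.72, 12.61 and 12.82 in null arrays. Its difference was 0.075 ± 0.10 (SE; 95% interval -0.16 to 0.32; limma, adjusted p = 0.742), and those of the other probe sets were 0.085 and -0.016. Null 2 was again the lowest array, if only narrowly for the first probe set. The sign of the Hba-x difference and of the third Hbb-y probe set turned positive without null 2. These probe sets lay near the top of the array's range: the mean level of Hba-x exceeded 99.98% and that of the brightest Hbb-y probe set 99.88% of all probe sets. Whether the signal was still proportional to the RNA there was not tested.

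Hbb-bh1, the beta-type chain of early primitive cells, was lower on every null array. Its brightest probe set (1437810_a_at) read 11.70, 11.77 and 11.56 in controls and 11.23, 10.62 and 11.44 in null arrays. The groups did not overlap, although null 3 lay close to the lowest control and null 2 far below it. The difference was -0.58 ± 0.21 (SE), or 1.49-fold lower, with a 95% interval of -1.06 to -0.093, and did not pass (limma, adjusted p = 0.285). The other probe sets differed by -0.52 and -0.55, both without overlap (limma, adjusted p of 0.294 and 0.329). Without null 2 the 3 differences were -0.34, -0.30 and -0.28. Beta-type globins resemble each other closely in sequence, and 1 of the 3 Hbb-bh1 and 2 of the 3 Hbb-y probe sets carry the suffix by which the manufacturer marks probes that may bind related transcripts.

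The adult alpha-globin gene Hba-a1 had a single probe set of its own, which read 3.25, 3.20 and 3.07 in controls and 3.60, 3.48 and 3.45 in null arrays. It was the one member above the controls on every null array, by 0.33 ± 0.11 (SE; limma, adjusted p = 0.258). Its mean level exceeded only 14.1% of probe sets, and it is therefore no measure of the abundance of adult alpha-globin. The 3 probe sets shared with another gene, which were bright, all had a higher mean in the null arrays, without a test. Other singly annotated globin genes of red cells did not differ beyond their spread. Hba-a2, the second adult alpha-globin gene, differed by 0.035 ± 0.10 (SE) and Hbb-b2, an adult beta-globin gene, by 0.12 ± 0.13 (SE), with overlapping arrays for both (limma over genes, adjusted p of 0.880 and 0.650). Ngb, the globin of neurons, was higher by 0.35 ± 0.14 (SE; limma over genes, adjusted p = 0.275), with the opposite sign in its other probe set.

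Alas2 read 9.52, 9.36 and 9.42 in controls and 9.16, 8.27 and 9.47 in null arrays. The null arrays spread over more than a log2 unit while the controls lay close together: null 3 lay inside the control range, null 1 slightly below it and null 2 far below. The difference was -0.47 ± 0.28 (SE; 95% interval -1.13 to 0.19; limma, adjusted p = 0.456). Without null 2 it was -0.12.

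Alad, which condenses aminolaevulinic acid to porphobilinogen, was below all controls on every null array with both probe sets. The brighter (1424877_a_at) read 9.13, 9.13 and 9.25 in controls and 8.92, 8.75 and 8.81 in null arrays. Here the null arrays lay close together, and the difference was -0.34 ± 0.10 (SE), or 1.27-fold lower (limma, adjusted p = 0.250). The dimmer (1457306_at) read 6.66, 6.54 and 6.97 against 6.09, 5.68 and 6.44, a difference of -0.65 ± 0.21 (SE; limma, adjusted p = 0.258).

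Urod, the decarboxylase that follows later in the cytosol, had the lowest unadjusted p of the members, 0.00680 (limma), with an adjusted p of 0.224. These p-values are those of its brighter probe set (1443849_x_at), on which the gene-level values of Urod rest too. It carries the suffix for probes that may bind related transcripts. This probe set read 10.73, 10.63 and 10.69 in controls and 10.23, 10.09 and 10.42 in null arrays. All null arrays were below all controls, by -0.44 ± 0.12 on average (SE; 1.36-fold lower; 95% interval -0.72 to -0.16). In its other probe set null 3 (9.14) reached almost the lowest control (9.15), while null 1 (8.75) and null 2 (8.56) were clearly below, and the difference was -0.37 ± 0.16 (SE; limma, adjusted p = 0.334), or -0.24 without null 2.

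Fech, the final enzyme, has 4 probe sets, of which 3 were lower on average. The brightest (1418699_s_at) read 9.64, 9.53 and 9.45 in controls and 9.15, 8.59 and 9.48 in null arrays, so that null 3 lay within the controls. Its difference was -0.47 ± 0.22 (SE), that of 1418698_a_at was -0.60 ± 0.25 (SE) and that of 1449181_at, the one without overlap, was -0.51 ± 0.15 (SE; limma, adjusted p of 0.361, 0.320 and 0.242). Without null 2 these were -0.22, -0.35 and -0.43. The last probe set (1427696_at) read between 3.11 and 3.83 on all arrays, above only 15.6% of probe sets in mean level, and differed by 0.21 ± 0.21 (SE).

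**Figure D2:**
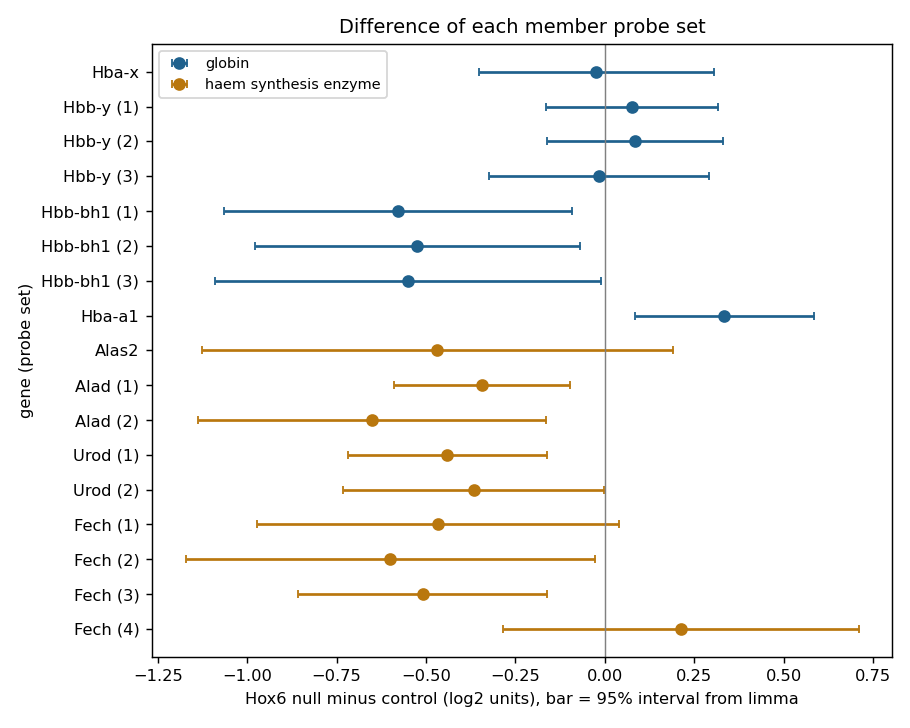
Points are the Hox6 null minus control differences (log2 units) of the 17 probe sets, with 95% intervals from limma, for 3 arrays per group. Intervals of Hba-x and Hbb-y span 0, while those of Hbb-bh1, Alad and Urod lie below 0 before adjustment for the number of probe sets tested; none passed after it.

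The 3 null arrays were not equally low. Relative to the control mean, the median of the 17 probe sets was -0.34 in null 1, -0.62 in null 2 and -0.079 in null 3. For the 9 enzyme probe sets these medians were -0.43, -0.66 and -0.24, and for the 3 Hbb-bh1 probe sets they were -0.42, -1.05 and -0.23. For the 4 probe sets of Hba-x and Hbb-y they were 0.070, -0.12 and 0.18. Null 2 stood below all controls in 15 probe sets, null 1 in 11 and null 3 in 9. How often each array did so over all probe sets was not counted, so these counts only describe the members. Without null 2 the median difference of the members was -0.24 instead of -0.44. Without null 3, 1 member probe set passed, that of Fech named 1418698_a_at (-0.86 ± 0.18, SE; limma, adjusted p = 0.0493), but 2.2% of all probe sets passed as lower in that fit. At gene level, Urod passed there (-0.53 ± 0.10, SE; limma over genes, adjusted p = 0.0311), where 4.02% of all genes passed as lower.

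Within an array, Hbb-bh1 was lower relative to Hbb-y in the null samples. The log2 level of Hbb-bh1 minus that of Hbb-y was -0.95, -0.85 and -1.09 in controls and -1.49, -1.99 and -1.37 in null arrays. The groups did not overlap, and the gap between them was -0.65. This gap had the same sign in all 9 pairs of their probe sets, between -0.66 and -0.51, with no overlap in any of the 9. These pairs share probe sets and arrays, so their agreement is no independent support. An exact two-sided permutation test gave p = 0.1, the smallest possible with 3 against 3 arrays, and 0.225 after Benjamini-Hochberg adjustment over 9 such differences. The pairs were chosen after the values were seen, and the test could not pass, so the gap is a description of these 6 arrays. The high level of Hbb-y on the arrays, given above, bears on it as well. Without null 2 the gap was -0.47.

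Alas2 also stood lower against the embryonic globins that were level. Alas2 minus Hbb-y was -3.13, -3.26 and -3.23 in controls and -3.56, -4.35 and -3.34 in null arrays, again without overlap (exact permutation p = 0.1, adjusted 0.225). This gap was -0.54, and -0.24 without null 2. On null 3 it lay below the controls although Alas2 itself (9.47) was within their range, because Hbb-y (12.82) was above theirs. Alas2 minus Hbb-bh1, in contrast, was -2.18, -2.41 and -2.14 in controls and -2.07, -2.36 and -1.97 in null arrays. These overlapped (exact permutation p = 0.5), and the mean gap was 0.11. For Alad, Urod and Fech minus Alas2 the mean gaps were 0.12, 0.028 and 0.0021, but null arrays lay both above and below the controls. Urod minus Alas2 was 1.21, 1.27 and 1.28 in controls and 1.07, 1.82 and 0.95 in null arrays, none of them within the control range. For Alad minus Alas2 the SD was 0.12 in controls and 0.58 in null arrays. These small means average opposite shifts and do not show that the enzymes moved with Alas2.

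**Figure D3:**
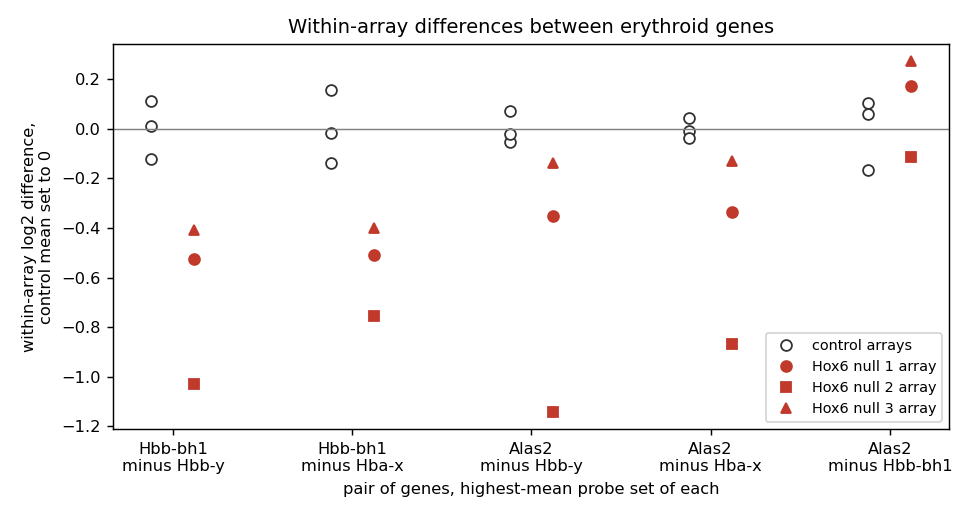
The vertical axis is the log2 level of one gene minus that of another on the same array, with the control mean of each pair set to 0; open circles are control and filled symbols Hox6 null arrays. In the first 4 pairs, Hbb-bh1 or Alas2 against Hbb-y or Hba-x, all null arrays lie below all controls, and in the pair Alas2 and Hbb-bh1 they overlap.

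Of 5 other haem pathway genes listed, 4 were measured, and 0 of them passed. Alas1, the housekeeping first enzyme, Uros, Cpox and Ppox had negative differences in 4 of 4 genes by their brightest probe sets, where 44% of all genes did, with a median of -0.24 against 0.033 over all genes, and 1 had an unadjusted p under 0.05 (limma over genes), where 8.24% of all genes were lower at that p. Cpox, which makes protoporphyrinogen, differed by -0.26 ± 0.093 (SE; adjusted p = 0.250; limma over genes) and Ppox by -0.23 ± 0.10 (SE; adjusted p = 0.305), both without overlap, but 1 of 3 probe sets of Cpox, 2 of 3 of Ppox and 1 of 2 of Uros had the opposite sign.

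Of 25 genes for iron uptake, mitochondrial carriers and haem breakdown, 21 were negative, against 44% of all genes, and 0 passed. Their median was -0.15, against 0.033 over all genes. At an unadjusted p under 0.05 (limma over genes), 7 were lower and 1 was higher, against 8.24% and 8.73% of all genes. Arrays did not overlap for 9 lower genes and 1 higher gene, against 11.7% and 12.2% of all genes. Hmox1, the inducible haem oxygenase that degrades haem, read 8.51, 8.23 and 8.42 in controls and 7.59, 7.05 and 7.59 in null arrays, a difference of -0.98 ± 0.17 (SE; limma over genes, adjusted p = 0.112). Slc40a1, the iron exporter ferroportin, differed by -1.83 ± 0.52 (SE; limma over genes, adjusted p = 0.194), with null 1 and null 2 at 7.23 and 7.73 and null 3 at 9.44, near the controls (9.69 to 10.15). Both are abundant in macrophages, whose markers are given below. The lone higher gene without overlap was Tfrc, the transferrin receptor that takes up iron, at 0.26 ± 0.11 (SE; limma over genes, adjusted p = 0.279), with the same sign in 3 of 3 probe sets.

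Of 18 red cell membrane and enzyme genes 16 were negative, against 44% of all genes, with a median of -0.41, and 0 passed (limma over genes). At an unadjusted p under 0.05, 8 were lower, against 8.24% of all genes, and 9 were lower without overlap, against 11.7%. Dmtn, which bundles actin in the membrane skeleton, differed by -0.66 ± 0.12 (SE; limma over genes, adjusted p = 0.115; the same sign in 2 of 3 probe sets), and the glycophorin gene Gypc by -0.52 ± 0.11 (SE; adjusted p = 0.154). Rhag, the dimmest of this list, had a mean level of 2.82. Of 14 transcription factor genes of the erythroid and megakaryocyte lineages, 9 were negative, against 44% of all genes, with a median of -0.34. Over all genes 0.0715% passed, and of these 14, 2 did, both lower. They were Hemgn, at -1.68 ± 0.17, and Nfe2, at -0.86 ± 0.092 (SE; limma over genes, adjusted p = 0.0417 each). This count of 2 became 0 when any control, null 1 or null 2 was left out, and 5 without null 3. It was also 0 with repeated quantile normalization, the replicate block and the epithelial covariate described below, and 1 after median centring. With an intensity trend and robust prior, or with the mean over probe sets, it stayed at 2. Array weights gave 4, in a fit where 155 of all genes passed. The stricter filter on dim genes left Hemgn and Nfe2 untested. Platelet and megakaryocyte genes gave 7 of 8 negative (44% of all genes) with a median of -0.32 and 0 past the threshold. At an unadjusted p under 0.05, 5 were lower (limma over genes; 8.24% of all genes), led by Treml1 (-0.62 ± 0.16, SE) and Pf4 (-0.86 ± 0.23, SE; limma over genes, adjusted p = 0.182 each).

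The genes whose levels followed Alas2 and Hbb-bh1 most closely over the 6 arrays were ranked by Pearson r among 9096 genes of at least median level. For Alas2 they were Qser1, Sike1, Fbxo11, Tcf7l1 and Exog, with r of 0.992 to 0.997, all with overlapping groups. For Hbb-bh1 they were Pacs1, Slc25a37, Edrf1, 2700081O15Rik and Klhl25, with r of 0.987 to 0.995. Slc25a37, mitoferrin, which carries iron into erythroid mitochondria for FECH, had an r of 0.993. It read 9.01, 9.05 and 8.91 in controls and 8.45, 7.58 and 8.59 in null arrays, a difference of -0.79 ± 0.25 (SE; limma over genes, adjusted p = 0.226). With 6 arrays in 2 groups and null 2 far from the rest, such an r is a measure of likeness only.

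Markers of other cell types were read on the same arrays. Over all genes, 44% were negative, 0.0715% passed and 8.24% were lower at an unadjusted p under 0.05 (limma over genes). Macrophage markers were negative in 12 of 12 genes, and 2 passed, Adgre1 and Ctss. Their mean log2 levels over the list were 8.48 to 8.57 in controls and 7.57 to 7.999 in null arrays. Endothelial markers, too, were negative in 12 of 12, at 8.40 to 8.54 and 7.76 to 8.11, and 2 passed, Tek and Clec14a. Each of these counts of 2 became 0 without any one control, null 1 or null 2. Without null 3 each was 8, where 4.02% of all genes passed as lower. Both were 0 with repeated quantile normalization, the replicate block and the epithelial covariate described below. After median centring they were 0 for macrophages and 1 for endothelium. With the stricter filter they were 3 and 2, and with array weights or an intensity trend and robust prior 5 and 4. Mesenchyme markers were negative in 11 of 12, at 9.83 to 9.94 and 9.25 to 9.53, and 0 passed (limma over genes; 5 lower with an unadjusted p under 0.05, and 5 past the threshold without null 3). Pancreatic epithelium markers, Pdx1, Ptf1a and Cpa1 among them, were positive in 11 of 11, at 8.49 to 8.77 and 8.71 to 9.75, with null 1 and null 2 high (9.75 and 9.51) and null 3 within the controls. Of these 11, 0 passed (limma over genes), and 7 were higher with an unadjusted p under 0.05, against 8.73% of all genes. Without null 3, 11 passed, but the share of all genes passing as higher in that fit was not counted. The dimmest epithelial marker, Neurog3, still had a mean of 6.25. With this epithelial level as a covariate the members' median difference was -0.18; the covariate was chosen after the data were seen. This epithelial level was itself high in null 1 and null 2, so on these arrays it cannot be cleanly separated from genotype. The part of tissue composition in the results on globin and haem genes was not tested.

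Liver parenchyma markers overlapped between the groups, at mean levels of 6.54 to 7.91 in controls and 6.56 to 7.20 in null arrays. Alb, the albumin gene, read 10.60 in control 2 and 6.44 to 8.02 on the other arrays, and control 2 was the highest array for the list. The members' median difference without control 2 was -0.47.

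**Figure D4:**
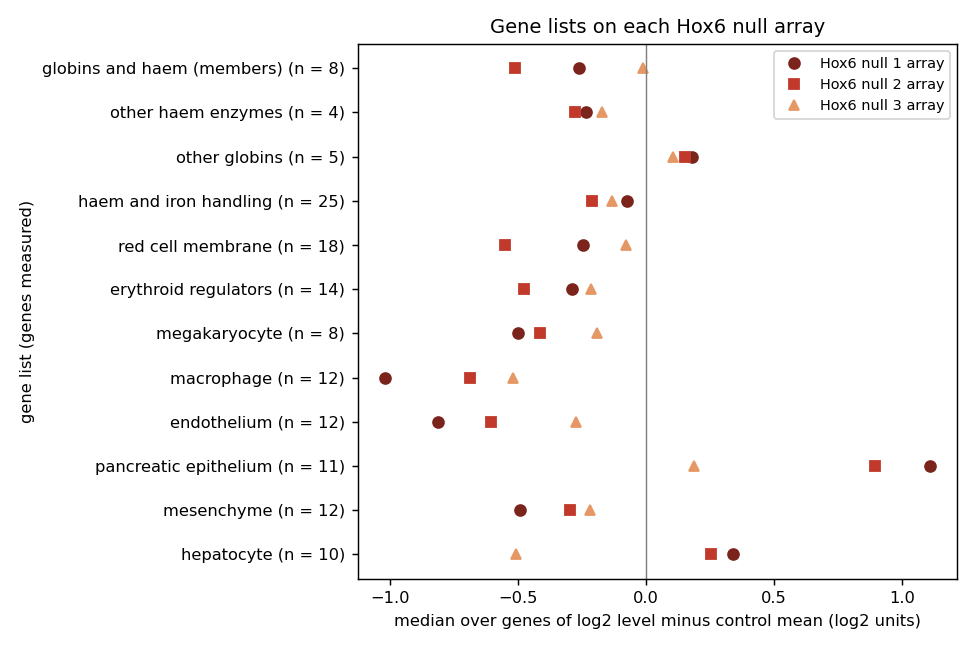
Each row is a gene list with the number of genes measured; symbols show, for each Hox6 null array, the median over the list of the log2 level minus the control mean. The member list lies at -0.26, -0.51 and -0.0092 in null 1, 2 and 3; epithelial genes lie to the right of 0 and macrophage and endothelial genes to the left.

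Across the whole table, array medians were 5.97 to 6.02, and Pearson correlations across probe sets were 0.994 to 0.995 between control arrays and 0.980 to 0.987 between null arrays. Of the targeted genes, Hoxb6 differed by -0.42 and the 3 probe sets of Hoxc6 by 0.13 to 0.73, none past the threshold. No value is given for Hoxa6. Which part of each gene was disrupted is not in the labels, so a probe set may lie outside it and check nothing.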

How the data were processed

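The deposited values are log2 expression levels per probe set, 1 array per sample. The submitters' processing notes name RMA (background correction, quantile normalization and summary of probes), affy and limma without versions or roles, and RMA values compress differences of dim probe sets. Per the labels' protocols, cDNA was amplified from a small amount of total RNA by the WT-Pico Ovation method of NuGEN; the genome build is not given in the sources used here. Of 45101 probe sets, 64 array controls were left out; 34945 had 1 gene symbol in the platform annotation, 932 several and 9160 none listed, and 34741 Entrez identifiers matched the RefSeq table (GRCm38.p6), with 0 symbols changed. A linear model with genotype as its term was fitted with limma 3.58.1 (lmFit, eBayes) in R 4.3.3 over 45037 probe sets, and over 18193 genes represented by their probe set of highest mean, with two-sided p-values adjusted by Benjamini-Hochberg and called under 0.05. The code was tested on simulated data. No detection calls were used. Precision is limited by the number of arrays, and p-values reflect only the spread among these samples, which may be partly technical. Of the lists, members were all described; from other lists genes past the threshold were named, otherwise those with the smallest p, with a few chosen after their values were seen (Tfrc, Rhag, Neurog3, Hba-a2, Hbb-b2, Alas1, Uros, Pdx1, Ptf1a and Cpa1). Members and lists were chosen with earlier results of these data known. Start regions of 6 of 9 members were taken from RefSeq (GRCm38.p6). Alternatives were other filters, normalizations, variance priors, array weights, a replicate block, the mean over probe sets, each array left out and an epithelial covariate.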

Additional observations from a re-analysis of the deposited data

How the results depend on the processing

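The count of member probe sets past the threshold stayed at 0 in each alternative except the fit without Hox6 null replicate 3, where it was 1, and so did the count of member genes (range over arrays left out 0 to 1 for both). Of 219 recomputed member differences, 212 kept their sign and side of the threshold, 1 passed newly and 6 changed sign. The stricter filter, the intensity trend with robust prior and the replicate block leave a difference itself unchanged, so its sign was fixed there. All 6 changes of sign were among the dim or near-level probe sets. With the epithelial covariate Hba-x went to 0.11 (0.1085), Hbb-y 1450621_a_at to 0.17 and Fech 1427696_at to -0.23. With an array left out, Hbb-y 1450621_a_at ranged from -0.13 to 0.081, positive without control 1 (0.015) or null 2, and Hba-x from -0.12 to 0.11, positive without null 2 (0.1136). The median member difference ranged from -0.53 to -0.24 over arrays left out and was -0.18 with the epithelial covariate. Probe sets past the threshold, 1 as reported, were 16 with the stricter filter, 63 with an intensity trend and robust prior, 41 with array weights, 0 with repeated quantile normalization or the epithelial covariate, and 0 to 1902 with an array left out. Genes past it, 13 as reported, were 74 with the trend and robust prior, 155 with array weights, 8 after median centring, 1 after repeated quantile normalization, 0 with the epithelial covariate and 0 to 1536 with an array left out. With the replicate block the gene count was 0 and the probe set count 1, with 0 members in both, so that the calls of Hemgn and Nfe2 were lost too. The replicate numbers are not known to pair the samples: deviations of same-numbered arrays correlated at 0.14, 0.0049 and 0.062, and not every array correlated best with its own number. The causes of these shifts were not tested. The gaps of Hbb-bh1 and of Alas2 to Hbb-y kept their sign in all of these fits. Median centring, the stricter filter, the variance prior and the replicate block cannot alter such a gap, so its sign was fixed there in advance.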
